A study of Mus musculus with 16 samples.

Results

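The promoter regions described here are the stretches of open chromatin that the authors' deposited table annotates as lying within 1 kb of a transcript start. This annotation column alone chose them, and no measured value entered the choice. They number 15510 of the 40796 regions of that table and lie at 12800 genes. Of these genes, 10628 had 1 such region and 2172 had 2 or more, with 9 at most. Nearly all regions (99.5%) were 400 bases wide, and the start itself lay inside 70.1% of them. All but 12 of the regions, 15498, were on chromosomes 1 to 19 and X.

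Monocytes of 7-day-old wild type mice had been sorted from the spleen by how much neuropilin-1 (Nrp1), a surface receptor that binds semaphorins and VEGF, they carried. Chromatin was read by ATAC-seq in 5 Nrp1high and 5 Nrp1low samples of 50000 C57BL/6 cells each, and transcripts by RNA-seq in 3 and 3 samples of 80000 C57BL/6J cells each. Every sample carries the cell type label of a myeloid-derived suppressor cell, and the descriptions of the RNA samples call the fractions Nrp1_neg and Nrp1_pos M_MDSC. The protocol speaks of pooled RNA and does not say whether replicates came from separate mice, so p-values measure only the spread between these samples, which may be technical. Which other markers defined the sorting gate is not stated in these sources.

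A promoter is the DNA around a transcript start where the transcription machinery assembles. ATAC-seq cuts accessible DNA with a transposase, so a promoter that is free of nucleosomes gives a peak of reads whether or not its gene is strongly transcribed. Many promoters, above all those of genes used in most cell types, are CpG islands, in which the dinucleotide CpG is frequent. Promoters of genes restricted to 1 cell type more often lack such an island.

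Each region has a deposited log2 fold, a p-value and a false discovery rate (FDR) from the comparison named H vs L. By that name a positive fold would mean more reads in Nrp1high cells. No column states the direction, and it was not tested, so regions are called positive or negative here by the sign of the fold. Outside the promoters, 2 intronic regions of Nrp1 itself had deposited folds of 1.47 (FDR 0.000351) and 1.5 (FDR 0.000833). An intronic region further along had -0.39 (FDR 0.0296). Other Nrp1 regions, at -0.6, -0.36, 0.59 and 0.01, were not called. The table gives no values of single ATAC libraries, so no spread over the 5 and 5 samples can be shown, and every promoter fold and FDR below is a value of the authors' deposited table.

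In RNA, the 6 libraries held 23395363 to 35127433 counts. The mitochondrial share of the counts was 0.784%, 1.57% and 1.11% in the Nrp1low and 3.01%, 1.29% and 2.38% in the Nrp1high libraries, groups that overlap, and the part of this share in the RNA comparison was not tested. Monocyte genes were expressed in both fractions: Csf1r, the receptor for macrophage colony-stimulating factor, was at 420.1 ± 46.6 CPM (counts scaled to the library total) in Nrp1low and 482.3 ± 16.3 in Nrp1high cells (SD, n = 3 each). Transcripts of neutrophil granule genes were also present and lower in Nrp1high cells: a list of 28 secondary granule and mature neutrophil genes summed to 49200 to 80160 CPM in the Nrp1low and 9735 to 11230 CPM in the Nrp1high libraries. A list of 20 primary granule and progenitor genes summed to 13750 to 20950 CPM and to 3470 to 5748 CPM. These sums move with the RNA comparison below, and their part in it was not tested. In bulk samples, fewer cells of a type and less RNA per cell cannot be told apart.

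The sequences of a few promoters are shown first: of the promoters of lowest FDR of each sign, of the genes called in both assays with the lowest RNA p, and of Klf4, where a RefSeq window overlapped the region. They are RefSeq windows from 250 bases before to 50 bases after a transcript start on GRCm38.p6, read along the strand of the gene, and each overlaps a promoter region of its gene by at least 150 bases. Capitals mark CpG dinucleotides. The first 3 are among the promoters of lowest FDR, negative for Osbpl3 (a sterol-binding transport protein) and Reck (a membrane inhibitor of matrix metalloproteinases) and positive for Slco4c1 (an organic anion transporter).
Osbpl3: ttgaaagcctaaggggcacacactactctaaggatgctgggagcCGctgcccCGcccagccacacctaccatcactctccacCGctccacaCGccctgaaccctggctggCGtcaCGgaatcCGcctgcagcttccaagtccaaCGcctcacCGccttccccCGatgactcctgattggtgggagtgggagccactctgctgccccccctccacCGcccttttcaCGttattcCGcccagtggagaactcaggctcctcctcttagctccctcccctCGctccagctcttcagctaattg
Reck: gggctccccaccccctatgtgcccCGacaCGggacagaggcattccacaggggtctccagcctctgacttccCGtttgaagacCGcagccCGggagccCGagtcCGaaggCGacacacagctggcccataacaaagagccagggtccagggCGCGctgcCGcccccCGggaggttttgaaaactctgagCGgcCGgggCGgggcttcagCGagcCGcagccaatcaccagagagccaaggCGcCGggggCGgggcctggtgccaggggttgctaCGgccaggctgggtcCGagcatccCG
Slco4c1: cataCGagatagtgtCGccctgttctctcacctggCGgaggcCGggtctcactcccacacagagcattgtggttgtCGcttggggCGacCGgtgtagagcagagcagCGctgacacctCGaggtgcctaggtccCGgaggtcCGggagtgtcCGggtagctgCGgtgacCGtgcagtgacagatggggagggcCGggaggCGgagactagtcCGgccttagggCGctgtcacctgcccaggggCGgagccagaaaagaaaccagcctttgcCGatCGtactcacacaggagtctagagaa
The windows are those of Osbpl3 (ENSMUSG00000029822) at chr6:50456121-50456420 on the minus strand, Reck (ENSMUSG00000028476) at chr4:43875280-43875579 on the plus strand and Slco4c1 (ENSMUSG00000040693) at chr1:96872122-96872421 on the minus strand. They held 14, 23 and 21 CpG dinucleotides.

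The next 4 belong to genes with both a positive promoter and lower RNA in Nrp1high cells: Camp (cathelicidin, an antimicrobial peptide of secondary granules), Cstdc5 and Stfa2l1 (stefin A family inhibitors of cysteine proteases) and 4930438A08Rik (a predicted gene).
Camp: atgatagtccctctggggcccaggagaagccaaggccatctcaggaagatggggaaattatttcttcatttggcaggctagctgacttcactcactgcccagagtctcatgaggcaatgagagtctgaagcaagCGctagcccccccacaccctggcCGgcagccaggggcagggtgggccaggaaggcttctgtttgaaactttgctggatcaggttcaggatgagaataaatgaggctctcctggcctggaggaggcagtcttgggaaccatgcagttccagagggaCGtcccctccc
Cstdc5: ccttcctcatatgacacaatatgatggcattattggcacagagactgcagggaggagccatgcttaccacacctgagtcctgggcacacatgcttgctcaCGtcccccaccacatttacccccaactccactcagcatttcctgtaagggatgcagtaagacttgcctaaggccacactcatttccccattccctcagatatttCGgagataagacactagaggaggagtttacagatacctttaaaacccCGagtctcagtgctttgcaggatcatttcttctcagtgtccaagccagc
Stfa2l1: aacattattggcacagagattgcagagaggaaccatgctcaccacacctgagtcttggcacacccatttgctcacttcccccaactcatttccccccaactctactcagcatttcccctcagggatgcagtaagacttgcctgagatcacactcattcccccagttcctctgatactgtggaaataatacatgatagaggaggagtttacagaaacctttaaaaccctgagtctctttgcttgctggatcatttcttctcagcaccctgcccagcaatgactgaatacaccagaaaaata
4930438A08Rik: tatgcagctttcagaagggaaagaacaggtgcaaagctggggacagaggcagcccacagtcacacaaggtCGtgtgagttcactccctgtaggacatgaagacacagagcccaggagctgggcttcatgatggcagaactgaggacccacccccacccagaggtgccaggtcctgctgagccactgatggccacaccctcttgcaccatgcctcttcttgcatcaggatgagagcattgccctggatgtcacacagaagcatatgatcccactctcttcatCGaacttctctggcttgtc
The windows are those of Camp (ENSMUSG00000038357) at chr9:109849407-109849706 on the minus strand, Cstdc5 (ENSMUSG00000071561) at chr16:36367521-36367820 on the minus strand, Stfa2l1 (ENSMUSG00000059657) at chr16:36156561-36156860 on the plus strand and 4930438A08Rik (ENSMUSG00000069873) at chr11:58274578-58274877 on the plus strand. These windows were poor in CpG, with 3, 3, 0 and 2 in that order. Not all genes with a positive promoter and lower RNA were alike in this. The Slco4c1 window above held 21 CpG, and windows of Tinagl1 and S100a9 held 18 and 2. The Cstdc5 and Stfa2l1 windows were alike: in a global alignment 236 of 327 columns (72.2%) were identical, with a shared run of 22 bases, against 44.0% to 52.6% for the other 35 pairs among the 9 windows printed. The stefin genes are near copies between which RNA counting could split reads, so the RNA values of single stefin genes are uncertain. Whether reads were shared between these promoter windows was not tested.

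The last 2 are Ugt1a6a, a glucuronosyltransferase whose promoter was negative and whose RNA was higher in Nrp1high cells, chosen after its values were seen, and Klf4, a zinc finger factor of monocyte differentiation that the study's design text names.
Ugt1a6a: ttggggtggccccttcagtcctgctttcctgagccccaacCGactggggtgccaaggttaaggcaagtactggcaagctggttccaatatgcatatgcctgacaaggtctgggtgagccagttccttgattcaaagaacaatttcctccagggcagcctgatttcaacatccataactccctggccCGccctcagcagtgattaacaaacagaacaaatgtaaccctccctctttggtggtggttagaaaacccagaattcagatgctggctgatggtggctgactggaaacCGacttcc
Klf4: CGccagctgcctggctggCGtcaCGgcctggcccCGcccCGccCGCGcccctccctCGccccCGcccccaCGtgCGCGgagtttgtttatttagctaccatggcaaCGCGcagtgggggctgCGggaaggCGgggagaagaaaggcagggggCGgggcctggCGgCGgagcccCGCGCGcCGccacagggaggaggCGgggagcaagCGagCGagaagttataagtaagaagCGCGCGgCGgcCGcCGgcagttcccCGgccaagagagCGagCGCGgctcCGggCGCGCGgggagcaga
The windows are those of Ugt1a6a (ENSMUSG00000054545) at chr1:88134559-88134858 on the plus strand and Klf4 (ENSMUSG00000003032) at chr4:55532426-55532725 on the minus strand. The Ugt1a6a window held 3 CpG dinucleotides and the Klf4 window 40.

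Promoters differed between the fractions less often than the other open regions did. At FDR under 0.05, 812 promoter regions (5.24%) were called, 248 positive (1.60%) and 564 negative (3.64%). Over all 40796 regions of the table the shares were 7.55%, 2.56% and 4.99%, and over the 25286 regions that are not promoters within 1 kb the share called was 8.98%. Negative calls outnumbered positive ones by 2.27 to 1 at promoters and by 1.95 to 1 over all regions. At an unadjusted p under 0.05, 2054 promoter regions were negative and 1040 positive.

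The folds of promoters were also smaller. Their median was -0.05, with quartiles of -0.24 and 0.10 and an SD over regions of 0.312, whereas the other regions had a median of -0.14 and an SD of 0.470. A fold of 1 or more on the log2 scale in either direction was found at 185 promoter regions (1.19%) and at 4.34% of the other regions. Regions 1 to 2 kb from a start were called at 7.92%, those at 2 to 3 kb at 8.75%, introns at 9.24% and distal intergenic regions at 9.25%. The shares and spreads by class are descriptions of 1 deposited comparison, and read depth per region, which was not in the columns used, was not compared between classes.

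**Figure D1:**
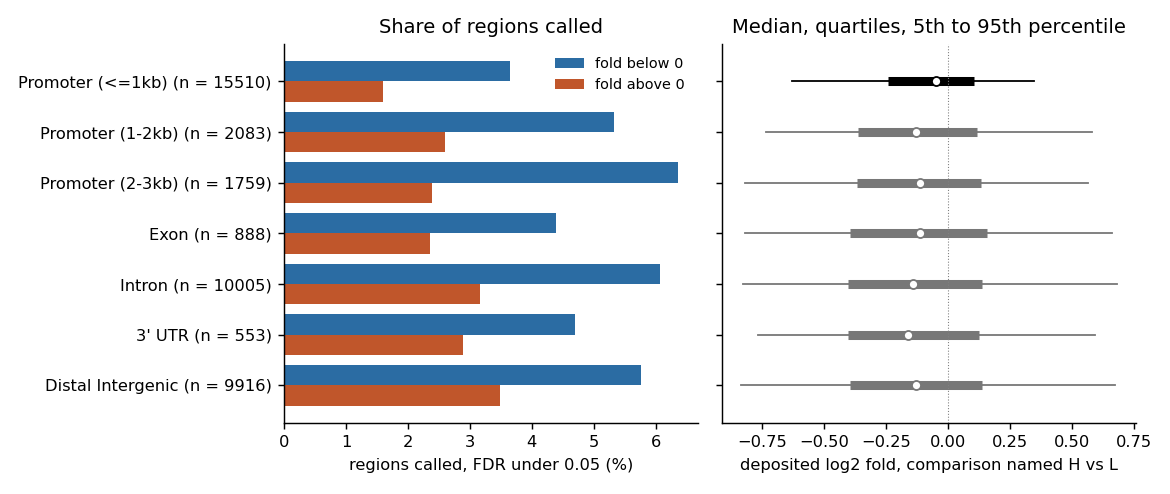
Left, share of regions called at FDR under 0.05 in percent for 7 annotation classes, as bars for folds below and above 0; right, deposited log2 folds of the same classes, with the median as a circle, the quartiles as a thick line and the 5th to 95th percentiles as a thin line. Promoters within 1 kb show 3.64% negative and 1.60% positive calls, the shortest bar of either sign among these classes, and the narrowest spread of folds.

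Within the promoters, calls were least frequent where the region covered the start. Of the 10874 such regions 4.75% were called, against 6.47% of 1624 regions that ended within 500 bases upstream and 6.66% of 1396 that began within 500 bases downstream. Beyond 500 bases, 6.06% of 742 upstream and 6.06% of 874 downstream regions were called. The farther upstream group had 7 positive and 38 negative calls. At the border of the annotation class, the 275 regions at 900 to 1000 bases had a median fold of -0.16 with 3 positive and 13 negative calls, and the 239 regions just outside, up to 1100 bases away, a median of -0.08 with 11 positive and 13 negative calls.

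The kind of gene and its transcription went along with small differences. Promoters of protein-coding genes were called at 4.89% (n = 13367), those of long non-coding RNA genes at 7.35% (n = 789) and those of pseudogenes at 6.77% (n = 192), by the RefSeq gene type of the symbol. Genes whose RNA was abundant enough to be tested had 4.92% of their 12858 promoter regions called. Genes in the RNA table below that level had 6.35% of 1543 called, and genes with no row in it 7.30% of 1109. On the X chromosome 9 of 413 promoter regions were called (2.18%). Chromosome 14 had 4 positive and 30 negative calls among 530 regions (6.42%), and chromosome 8 had 19 of each among 840 (4.52%). Over all promoter regions the share was 5.24%. These 2 chromosomes are named as those with the highest and lowest ratio of negative to positive calls (7.5 and 1.0, against 2.27 over all promoters).

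The match to RefSeq gave a sequence to 6466 regions (41.7%), those whose own gene's RefSeq promoter overlapped them by 150 bases or more. Their windows held a median of 22 CpG dinucleotides in 300 bases, against 7 over all 32817 RefSeq promoters. Windows of positive regions had a median of 20 (n = 99), of negative regions 21 (n = 179) and of regions not called 22 (n = 6188). CpG-poor windows, with under 7 CpG, made up 9.09% of the positive, 16.8% of the negative and 7.84% of the regions not called. Of the 524 CpG-poor promoters, 7.44% were called, 9 positive and 30 negative, whereas the share was 3.74% to 4.26% in the 4 classes of higher CpG content. The SD of the folds was 0.391 among the CpG-poor promoters and 0.224 to 0.277 in the other classes.

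**Figure D2:**
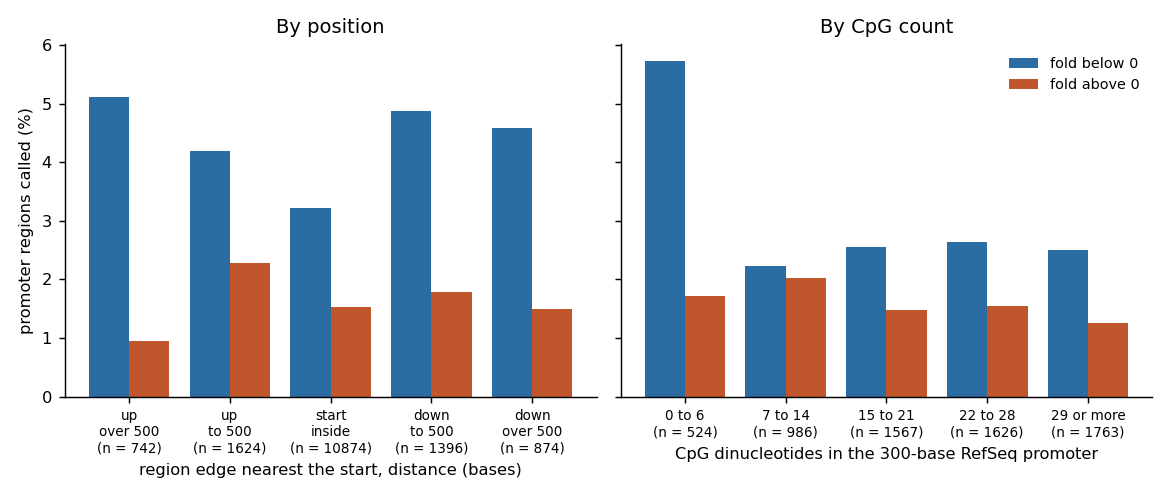
Share of promoter regions called at FDR under 0.05, in percent, as bars for folds below and above 0; left by the distance in bases from the transcript start to the nearest region edge, right by the number of CpG dinucleotides in the 300-base RefSeq window. The bars for folds below 0 are highest at more than 500 bases upstream (38 of 742 regions) and in windows with 0 to 6 CpG (30 of 524 regions).

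Short sequence motifs were counted in the same windows on both strands. CCAAT, the box bound by NF-Y, was found in 56.6% of the positive, 34.6% of the negative and 41.9% of the regions not called, and in 37.4% of all RefSeq promoters. AGATAA, a site for GATA factors, was found in 14.1%, 6.15% and 5.06%, and in 11.2% of all. TATAAA, the core of the TATA box, had shares of 14.1%, 6.15% and 6.11%, and of 13.6% over all. The cyclic AMP response element TGACGTCA was found in 6 of the 99 positive windows (6.06%), in 1 of the 179 negative (0.559%) and in 3.93% of those not called (1.79% of all). GAGGAAGT, a core for the myeloid factor PU.1, was found in none of the 99 positive windows, in 14 negative ones (7.82%) and in 3.8% of those not called (3.2% of all). The ETS core CCGGAAGT, typical of CpG islands, had shares of 2.02%, 6.15% and 10.2% (3.89% of all). The GC box GGGCGG was found in 66.7%, 64.8% and 68.7% (35.6% of all), and it overlaps the CCCNCCC box of Krüppel-like and SP factors, found in 67.7%, 63.1% and 69.3% (48.1% of all). A match is a run of letters and no evidence of binding. The other 9 motifs counted were those of C/EBP (TTGCNNCAA), AP-1 (TGANTCA), NRF1 (GCGCATGC), the E-box (CACGTG), RUNX (TGTGGTT), NF-kB (GGGANTTCC), YY1 (AAGATGGC), ZBTB33 (TCTCGCGA) and IRF factors. They were found in 0.559% to 14.1% of the positive or negative windows and in 0.993% to 7.81% of all RefSeq promoters.

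The promoters of lowest FDR with a negative fold belonged to genes of varied function. Kif5c, a kinesin heavy chain, led with a fold of -0.91 (FDR 2.62e-05, chr2:49744396-49744795), and its RNA was near the detection limit at 0.223 to 1.39 CPM over the 6 libraries. Osbpl3 followed with -0.94 (FDR 8.28e-05) and Reck with -1.29 (FDR 0.000156). Reck RNA was 13.9, 7.35 and 9.37 CPM in the Nrp1low and 0.803, 0.826 and 4.96 CPM in the Nrp1high libraries. These groups did not overlap, but the difference of -2.22 ± 0.74 (log2, SE) missed the threshold of the quasi-likelihood test in edgeR (adjusted p = 0.367). Osbpl3 RNA was 2.54, 3.97 and 2.71 CPM against 7.94, 6.51 and 5.09 CPM, also without overlap and in the other direction (1.08 ± 0.37, adjusted p = 0.374). The list went on with Fabp5 (a fatty acid binding protein, -0.71), Nav1 (a neuron navigator, -1.23), Cldn10 (a claudin, -0.92), Hepacam2 (-1.56), Rubcnl (-0.84), Cd40 (a co-stimulatory receptor, -1.70), Tmsb10 (an actin-binding thymosin, -0.77) and Adam19 (a metalloprotease, -0.77). Other regions of Cd40 (-0.49) and Adam19 (-0.78) were not called.

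Among positive promoters, Slco4c1 had the lowest FDR of all (fold 1.30, FDR 1.19e-05, chr1:96871926-96872325). Zfhx3, a large homeobox factor, followed with 2.06 (FDR 3.6e-05), and its RNA was 1.91, 9.90 and 6.20 CPM in Nrp1low and 16.8, 13.1 and 19.7 CPM in Nrp1high libraries (1.46 ± 0.54, adjusted p = 0.412). Sppl2b, an intramembrane protease, had 0.89 at a region 805 bases downstream of a start. Abca13, a lipid transporter of the ABC family, had 1.63 at a region 861 bases upstream of the start. The regions that covered a start of these 2 genes, at 0.13 and 0.75, were not called. Syne1, which links the nucleus to the cytoskeleton, had 2.15 (FDR 0.00044) at a region 75 bases upstream of 1 of its starts. Its RNA was 19.1, 74.3 and 58.3 CPM against 22.5, 13.2 and 11.5 CPM, with the groups overlapping (-1.68 ± 0.50, adjusted p = 0.302). Rhoa, a GTPase that controls the cytoskeleton, showed that a small fold could be called: 0.53 at FDR 0.000852. Another Rhoa region, at -0.08, was not called. Rhoa RNA was 515.6, 529.5 and 524.8 CPM against 581.7, 520.5 and 601.6 CPM. The others were Clec3a (1.32), Tfpi2 (1.23), Cstdc5 (1.72), Usp39 (1.72), Pde4b (1.22) and Ankrd13c (0.48). Other regions of Usp39 (-0.13), Pde4b (0.26) and Ankrd13c (0.20) were not called.

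The most extreme called folds were found mostly at genes with no row in the RNA table or with little RNA. At the lower end stood Dact1 (-1.95), the predicted Gm19554 (-1.89), Cd40 (-1.70), Gm13074 (-1.65) and Stox2 (-1.61). At the upper end were Gm45332 (3.45), Ighv1-51 (2.30), Syne1 (2.15), Gm31583 (2.14) and Zfhx3 (2.06). Of these 10 genes, 4 had no row in the RNA table, and Dact1, Stox2 and Gm31583 were at 0 to 1.19 CPM in every library.

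Many genes had more than 1 promoter region. Regions at genes with 2 were called at 4.94% and those at genes with 3 or more at 6.33%, beside 5.24% over all promoters. Of the 2172 genes with 2 or more promoter regions, 243 had 1 called and 8 had 2 or more called. Whether these counts differ from what such shares would give was not tested. In 7 of the 8 all called regions had the same sign. Mtus1, a microtubule-associated protein, was the gene with 3 called starts, with folds of -0.71, -0.84 and -0.71. Zfhx3 was the exception, with 2.06 at 1 start (chr8:108637931-108638330) and -0.55 at another (FDR 0.0336, chr8:108714486-108714885). Hdc, the enzyme that makes histamine, had -1.22 (FDR 0.00785) at 1 start and 0.73 (FDR 0.0819, not called) at another. Tnfsf13b (BAFF, a B cell survival factor) had 1.83 (FDR 0.00392) at 1 start and -0.29 (FDR 0.362, not called) at another. The RNA values are per gene and do not tell the starts apart.

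The genes that the study's design text names had mostly uncalled promoters. The only region within 1 kb of Nrp1, 935 bases upstream of the start (chr8:128357270-128357669), had a fold of -0.15 (FDR 0.516). Nrp1 RNA was 20.1, 57.8 and 41.5 CPM in Nrp1low and 97.3, 89.8 and 111.4 CPM in Nrp1high libraries, every Nrp1high library above every Nrp1low one. The difference of 1.32 ± 0.36 did not pass edgeR's test over all genes (adjusted p = 0.259). Of 13 alternative fits it passed in 1, that with DESeq2 (adjusted p = 0.0218). Klf4 had -0.19 (FDR 0.547) at its start and -0.33 (FDR 0.416) 563 bases downstream, with RNA of 17.1, 122.9 and 84.8 CPM against 235.1, 113.9 and 222.4 CPM (adjusted p = 0.445), groups that overlap. Mapk14, the p38 alpha kinase, had 0.00 (FDR 0.992) and Mtor -0.12 (FDR 0.438). Sema4a, the semaphorin named there as the partner of Nrp1, was called, with -0.68 (FDR 0.0129, chr3:88454750-88455149). Its RNA was 357.5, 266.6 and 297.5 CPM in Nrp1low and 219.3, 303.6 and 230.8 CPM in Nrp1high libraries, which overlap. Nos2, the inducible nitric oxide synthase, had no promoter region within 1 kb in this table and no row in the RNA table.

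For RNA, 15541 genes were tested with edgeR's quasi-likelihood test and Benjamini-Hochberg adjustment. Of these 106 (0.682%) passed an adjusted p of 0.05, 105 lower in Nrp1high cells (0.676%) and 1 higher (0.00643%). Among the 10372 tested genes with a promoter region, 69 were lower and 1 was higher, a share of 0.675% that was near the share over all genes. This count of 70 depended on single libraries: it was 0 without Nrp1high replicate 3, 17 without Nrp1high replicate 1, 18 without Nrp1low replicate 3 and 30 without Nrp1high replicate 2. DESeq2 called 264, 215 lower and 49 higher. With a block for replicate number, edgeR called 0.

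RNA and promoter calls met most often in genes with lower RNA and a positive promoter fold. Each gene was given its promoter region of lowest FDR. Of 198 tested genes with a positive promoter, 9 were lower in RNA (4.55%) and none was higher. Of 426 with a negative promoter, 2 were lower and 1 was higher (0.704% together), and of 9748 with no called promoter, 58 were lower (0.595%). Over all tested genes of each kind, the median RNA difference was -0.10 (log2) for genes with a positive promoter and 0.18 for genes with a negative one, against -0.02 where the promoter was not called. The RNA difference was above 0, toward Nrp1high cells, in 43.9%, 62.7% and 48.5% of these genes. At an unadjusted p under 0.05, 31 genes with a positive promoter were lower (15.7%) and 12 higher (6.06%). Of the genes with a negative promoter, 18 were lower (4.23%) and 44 higher (10.3%). Where the promoter was not called, the shares were 7.38% lower and 4.54% higher.

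Across all 10372 genes, Spearman's rho between promoter fold and RNA difference was -0.09 and Pearson's r was -0.13, as a description over genes that share the same libraries. Of the 69 genes lower in RNA, 44 had a promoter fold above 0 and 25 below, with a median of 0.15 and a range from -1.22 to 1.83. Over all tested genes 43.5% were above 0, with a median of -0.04.

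**Figure D3:**
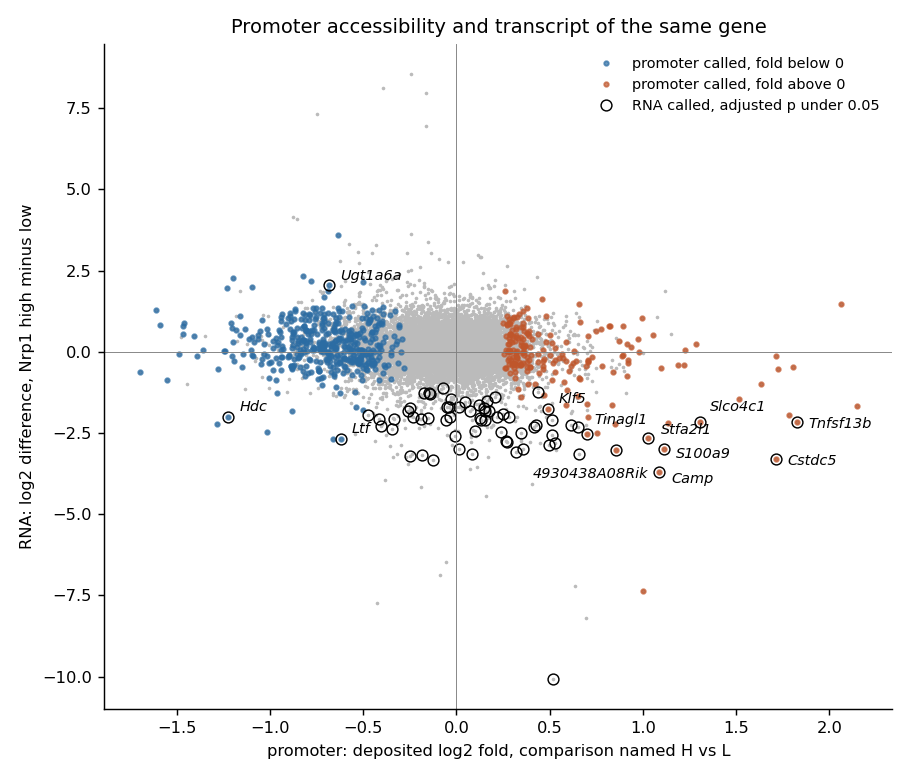
Each point is 1 of 10372 genes, with the deposited log2 fold of its promoter region of lowest FDR on the horizontal axis and the RNA log2 difference, Nrp1high minus Nrp1low, on the vertical axis. Coloured points have a called promoter, black circles mark the 70 genes called in RNA, and the 12 genes called in both are named. Of those 12, 9 lie at the lower right.

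Of the 12 genes called in both assays, 3 were on the secondary granule and mature neutrophil list (Camp, S100a9 and Ltf), 2 were stefin genes and 1, Slco4c1, was a transporter gene. With the fold read as the comparison is named, 10 of the 12 had opposite signs in promoter fold and RNA and 2 had the same sign. Read the other way round, 10 would share the sign and 2 would be opposite. They were 17.1% of the 70 genes called in RNA, while 6.02% of all 10372 tested genes with a promoter region had a called promoter. The count was 0 without Nrp1high replicate 3, 6 without Nrp1low replicate 3 or without Nrp1high replicate 1, 7 without Nrp1high replicate 2 and 8 without Nrp1low replicate 2. DESeq2 gave 29, of which 24 had opposite signs with the fold read as named. With a block for replicate number, edgeR gave 0.

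Camp RNA was 9452, 5848 and 9950 CPM in the Nrp1low and 644.5, 705 and 580 CPM in the Nrp1high libraries. Every Nrp1low library stood above every Nrp1high one, by 13.1 times in the means, and Camp fell by 3.71 ± 0.29 (log2, SE; adjusted p = 0.00416). Its promoter fold was 1.09 (FDR 0.00244). S100a9, a subunit of calprotectin, was at 8425, 6557 and 12750 CPM against 1467, 928.8 and 1096 CPM. The groups lay apart, the fall was 2.99 ± 0.33 (adjusted p = 0.00825), and the promoter fold was 1.11 (FDR 0.00378). Ltf, the iron-binding lactoferrin of secondary granules, was at 2090, 1564 and 2013 CPM against 244.1, 346.8 and 294.6 CPM, lower by 6.40 times in the means (adjusted p = 0.00416). Unlike Camp and S100a9 it had a negative fold at its start, -0.62 (FDR 0.0342), beside an uncalled 0.38 (FDR 0.380) at another region.

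The stefin genes lie on chromosome 16. Cstdc5 was at 6273, 4575 and 7864 CPM in Nrp1low and 696.9, 604.7 and 579.8 CPM in Nrp1high libraries, a fall of 3.31 ± 0.28 (adjusted p = 0.00416), with a promoter fold of 1.72 (FDR 0.000676). Stfa2l1 was at 263.9, 209.7 and 324.8 CPM against 45.3, 38.6 and 43.7 CPM, with a promoter fold of 1.03 (FDR 0.0129). Both genes were lower in every Nrp1high library, with the limit on near copies given above. The predicted gene 4930438A08Rik had 98.4, 78.7 and 86.5 CPM against 10.64, 10.43 and 10.98 CPM and a promoter fold of 0.86 (FDR 0.0331).

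Slco4c1 RNA was 15.7, 27.8 and 15.8 CPM in Nrp1low and 3.25, 4.80 and 5.12 CPM in Nrp1high libraries (adjusted p = 0.044). Tnfsf13b was at 25.6, 15.5 and 13.1 CPM against 4.21, 4.495 and 3.31 CPM (adjusted p = 0.0399), with a fold of 1.83 at the called one of its starts. Klf5, a Krüppel-like factor, was at 16.7, 25.1 and 20.7 CPM against 5.59, 5.38 and 7.58 CPM, with a promoter fold of 0.49 (FDR 0.00801, RNA adjusted p = 0.0463). These 3 were low to moderate in RNA, and in each the groups did not overlap. Tinagl1, a secreted matrix protein, was at 35.6, 33.6 and 34.1 CPM against 5.01, 7.83 and 4.83 CPM, with a promoter fold of 0.70 (FDR 0.0434).

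Hdc was, beside Ltf, the second gene with a negative fold and lower RNA, with RNA of 46.1, 31.02 and 35.01 CPM in Nrp1low and 7.23, 10.9 and 9.82 CPM in Nrp1high libraries (adjusted p = 0.0212). Ugt1a6a was the only gene of the 12 higher in Nrp1high cells, at 5.02, 7.31 and 7.16 CPM against 20.2, 26.6 and 34.3 CPM (2.06 ± 0.31, adjusted p = 0.0289). Its promoter fold was -0.68 (FDR 0.0134). The Ugt1a transcripts share their 3' exons, so the count of a single one is uncertain.

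**Figure D4:**
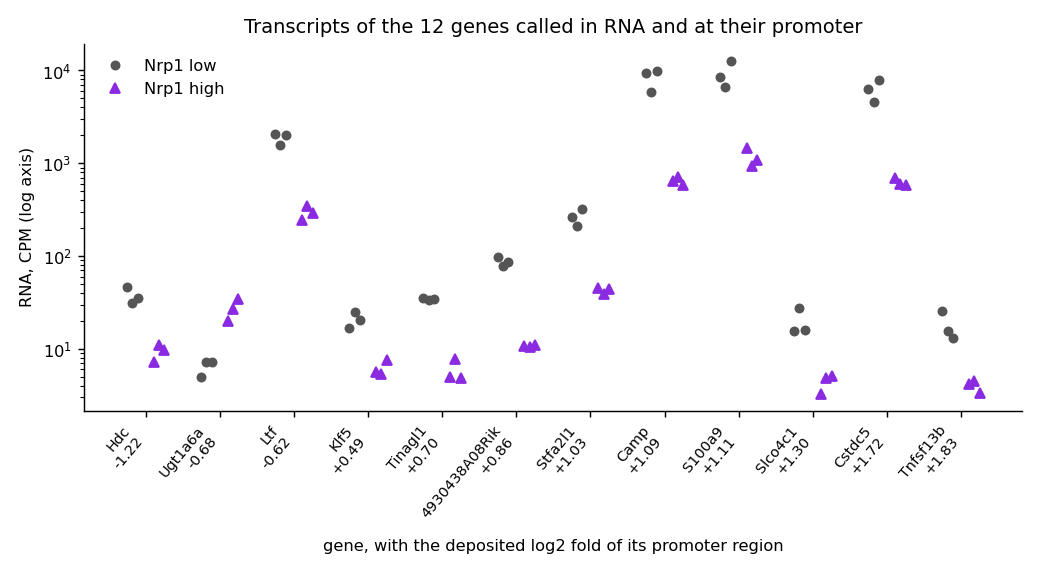
RNA in CPM on a log axis for the 12 genes called in both assays, 1 point per library (circles Nrp1low, triangles Nrp1high, 3 each), ordered by the deposited log2 fold of the promoter printed under each name. In all 12 the groups do not overlap, and Nrp1high is above Nrp1low in Ugt1a6a alone.

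The promoters of 28 gene lists were then described, each by its called genes beside the shares over all genes. Of all genes with a promoter region, 6.27% were called, 1.92% positive and 4.35% negative. Unless stated, the fold of a gene is that of its region of lowest FDR, and its other regions may be uncalled. Of 28 secondary granule and mature neutrophil genes 18 were lower in RNA, and of the 15 with a promoter region 2 were positive (Camp and S100a9) and 2 negative (Ltf and the collagenase Mmp8, -0.66). Their 17 regions had a median fold of 0.14, against -0.05 over all promoters. Of 20 primary granule genes 10 were lower in RNA. Of 13 with a promoter region 1 was called (7.69%, near the 6.27% over all genes): Calr, an endoplasmic reticulum chaperone (0.36). The median there was -0.05, the same as over all promoters.

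The 2 monocyte lists and the macrophage list held 4 called genes, shares of 11.1% (classical), 5.56% (non-classical) and 7.69% (macrophage) beside the 6.27% over all genes. Of 18 classical monocyte genes with a promoter region, Ccr2, the chemokine receptor for leaving the bone marrow, had -0.82 (FDR 0.0104) and Fn1, fibronectin, -0.69 (FDR 0.00133), and none was positive. Ccr2 RNA was 368, 628.3 and 393.4 CPM in Nrp1low and 839.7, 675.5 and 914.4 CPM in Nrp1high libraries, and Fn1 RNA 292.5, 1969 and 1234 CPM against 2806, 2169 and 2957 CPM. In both, the Nrp1high libraries lay above the Nrp1low ones, and neither passed the test (Ccr2 0.81 ± 0.26, adjusted p = 0.356, and Fn1 1.18 ± 0.57, adjusted p = 0.446). The list as a whole was not raised in RNA. Its 20 genes had a median difference of 0.05 (log2), with 2 higher and 4 lower at an unadjusted p under 0.05 in edgeR's test. The median fold of the 23 classical monocyte regions was -0.16. Among 18 non-classical monocyte genes Pou2f2, a POU factor, was called with -1.16 (FDR 0.012). Among 13 macrophage and red pulp genes the iron exporter Slc40a1 was called with 0.65 (FDR 0.00207), and its RNA was 117.1, 106.8 and 80.5 CPM against 27.9, 50.3 and 41.1 CPM (-1.35 ± 0.27, adjusted p = 0.0942).

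Antigen presentation and signalling lists held 1 to 3 called genes each. In the MHC class II list of 13 genes with a promoter region, Cd40 was negative and H2-DMa, a peptide loading chaperone, was positive (0.32, FDR 0.0449), and the median of its 16 regions was -0.24. The semaphorin, plexin and VEGF list had 3 negative calls and no positive one among 19 genes: Sema4c (-1.11, FDR 0.000886), Sema4a and Plxna3 (-0.74, FDR 0.0287). Sema4c and Plxna3 RNA was at 0 to 1.77 CPM in every library. In the p38 list of 24 genes Map2k3, a kinase that activates p38, had 0.47 (FDR 0.0174). The p38 target Mef2c had 0.82 (FDR 0.021) at 1 region. Its other promoter regions, with folds from -0.26 to 0.27, were not called. In the mTORC1 list the translation repressor Eif4ebp1 had -0.45 (FDR 0.020) among 27 genes. In the arginine and nitric oxide list the citrulline-recycling enzyme Ass1 had -0.51 (FDR 0.0447) among 12 genes, with RNA of 52.7, 51.2 and 53.8 CPM against 74.1, 96.7 and 90.9 CPM (0.73 ± 0.19, adjusted p = 0.229).

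Regulators of inflammation were called in both directions. The interferon list had Irf1 (-0.47) and Mx2 (-0.42) among 21 genes, and the suppressive effector list had the cytokine Il6 (-1.25, FDR 0.00217) among 18. Il6 RNA was at 0 to 0.90 CPM. The NF-kB list had the kinase subunit Ikbkg (0.59) and the inhibitor Nfkbie (-0.60) among 20 genes. Other Ikbkg regions, at -0.02 and -0.17, were not called. The immediate early list had Jund (0.46) among 23 genes. In the myeloid transcription factor list the retinoic acid receptor Rara (-0.62, FDR 0.0028) and Irf5 (-0.44) were called among 28. The lysosome list had the protease Ctsa (-0.73) and the proton pump subunit Tcirg1 (-1.09) among 30. Other Tcirg1 regions, at -0.05 and 0.17, were not called. In the fetal and neonatal list of 7 genes with a promoter region, Igf2bp3, an RNA-binding protein of fetal blood cells, had -0.49 (FDR 0.015) and Mycn -1.11 (FDR 0.0162). The Kruppel-like factor list had Klf5 called among 13 genes (7.69%).

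General growth genes held almost no called promoter. None of 68 ribosomal protein genes, 29 cell cycle genes or 27 oxidative phosphorylation genes was called, and the 72 ribosomal protein regions had folds from -0.26 to 0.30. Of 4 replication-dependent histone genes, Hist1h2bp was called (0.47).

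Markers of other cells that a spleen sort could hold were also read. Erythroid promoters stood on the positive side, with 15 of 16 regions at or above 0, a median of 0.19 and 1 call among 13 genes (the carbonic anhydrase Car2, 0.51, FDR 0.0386). The RNA of the erythroid list summed to 3871 to 6795 CPM in Nrp1low and 3745 to 4498 CPM in Nrp1high libraries. The platelet chemokine Pf4 was negative (-0.88, FDR 0.0336) among 7 genes, and its RNA was 19.4, 12.8 and 24.8 CPM against 7.65, 5.60 and 2.95 CPM (-1.81 ± 0.42, adjusted p = 0.170). Another Pf4 region, 75 bases upstream of the start, had 0.59 and was not called. In RNA 3 platelet list genes were lower, among them the chemokine Ppbp, at 17.0, 14.2 and 14.7 CPM in Nrp1low and 1.8, 0.734 and 1.36 CPM in Nrp1high libraries. Its groups lay apart (-3.56 ± 0.40, adjusted p = 0.00825). Of 12 dendritic cell genes Tcf4 was positive at 1 of its starts (0.83, FDR 0.00451), and its other regions were not called. Of the 18 dendritic cell regions 14 were below 0, with a median of -0.13. Of 2 basophil genes Hdc was negative. None of 6 B cell or 4 T and NK cell genes was called. Cd3e, a T cell gene, was at 1.33 to 2.96 CPM over the libraries. The part of such cells in the promoter folds was not tested.

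**Figure D5:**
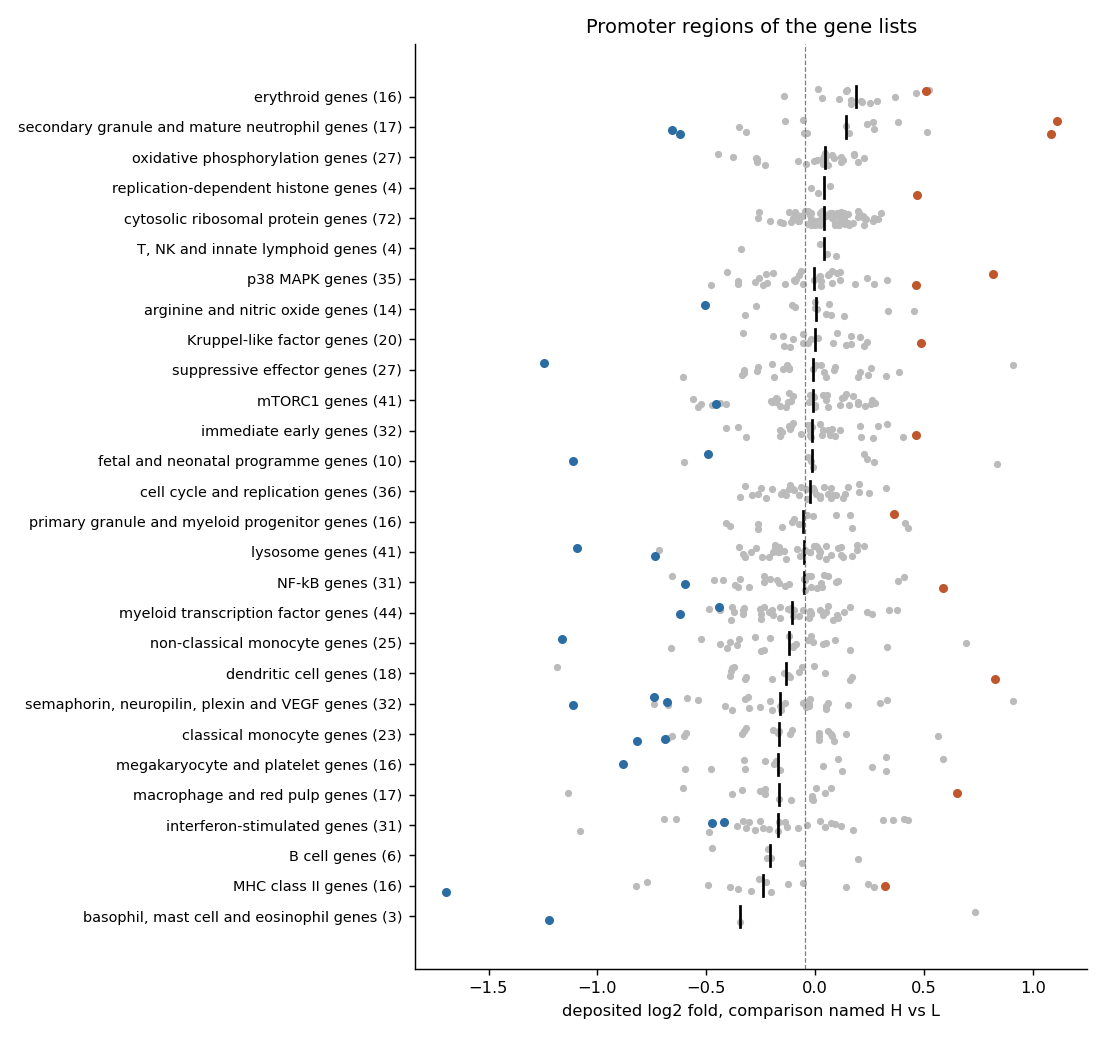
Deposited log2 folds of the promoter regions of 28 gene lists, 1 point per region (number of regions in brackets), with called regions in colour (blue below 0, orange above 0), the list median as a black bar and the median of all promoter regions, -0.05, as a dashed line. The lists are ordered by their medians, from 0.19 for erythroid to -0.34 for the 3 regions of the basophil list, and the ribosomal protein regions lie between -0.26 and 0.30.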

How the data were processed

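Members were selected by the annotation column of the authors' deposited ATAC-seq table (Promoter (<=1kb)). Per the submitters' processing notes, the ATAC-seq tools, named without versions, include BWA, Trimmomatic, MACS2, Picard, DiffBind, ChIPseeker, DESeq2 and edgeR, and the build is GRCm38. Read shifting, peak settings and the libraries that entered are not stated there. Per the file headers, each region has its log2 fold, its p-value and its FDR. These deposited p-values are the authors' own, and the FDR differed from a Benjamini-Hochberg adjustment over all 40796 regions by at most 0.000268. The labels describe a DESeq2 table of the same comparison, while the header of the one used names edgeR. A region was called at FDR under 0.05. ATAC-seq depth is unknown here.

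The RNA values are estimated counts per gene, deposited as whole numbers. HISAT2 and StringTie are named in the submitters' processing notes, and the layout of identifiers is that of StringTie's count script, which derives counts from coverage, so the scale of a single count is uncertain and overlapping genes cannot be told apart by strand. Counts of 25562 genes were filtered with filterByExpr to 15541, scaled by TMM and tested with edgeR's quasi-likelihood test (edgeR 4.0.16, limma 3.58.1, R 4.3.3) with Benjamini-Hochberg adjustment at 0.05, over all genes tested. CPM used the TMM-scaled library totals. DESeq2 1.42.0 served as an alternative. Groups came from the sample titles. No pairing by replicate number was assumed in the main test. The correlations of same-numbered deviations from the group means were -0.237, -0.240 and 0.021. With 3 libraries per group these cannot decide whether equal numbers pair samples.

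Motifs were to be counted in the 400-base regions. They were counted instead in RefSeq promoter windows of 300 bases (GRCm38.p6), and regions without such a window were not analysed for sequence. The main edgeR test was also run on simulated counts.

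Named genes were the study's own (Nrp1, Klf4, Sema4a, Nos2, Mapk14, Mtor), the 12 promoters of lowest FDR of each sign at genes that are not predicted models, the 5 largest and 5 smallest called folds, the genes called in both assays, and up to 3 genes of lowest FDR per list. Called list members beyond these were named as well. Some items that the rule would name are not reported here. The members, lists and rules were chosen with earlier results of these data known, so no count is independent support for another.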

Additional observations from a re-analysis of the deposited data

How the results depend on the processing

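The 812 called promoter regions became 215 at FDR under 0.01 (67 positive, 148 negative), 1574 at 0.1 (502, 1072), 131 with an absolute log2 fold of at least 1 (44, 87), 516 with the start inside (166, 350) and 534 when adjusted over promoters alone (169, 365). The positive share was 30.5% to 33.6% throughout. With 1 region per gene 803 were called. The 70 genes called in RNA became 264 with DESeq2, 113 at an adjusted p of 0.1, and 0 to 80 on leaving out 1 library each. Without Nrp1high replicate 3 none passed edgeR's quasi-likelihood test. Of the tested genes with a promoter region, 587 were then at an unadjusted p under 0.05. They were 71 to 83 with RLE or upper-quartile factors, limma-voom, no filter or a 10-count filter. The 12 genes called in both became 29 with DESeq2, 22 with 0.1 in both (18 of opposite sign, read as named) and 0 to 13 on leaving out 1 library each. Under a replicate block edgeR called 0 RNA genes with a promoter region and 0 genes in both. Of the tested genes with a promoter region, 658 were at an unadjusted p under 0.05 in that fit. Whether equal replicate numbers pair the samples could not be decided. The cause of these changes was not tested. Among the values of named RNA genes under the alternatives, 416 kept their side of the threshold, 45 lost it, 7 gained it and none reversed. The scalings moved the median of all genes by 0.012 and -0.023 (log2). RNA counts limit what is read at genes under 1 CPM.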
